A study of Mus musculus with 4 samples.

Results

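The 8 genes described here encode surface molecules through which antigen-presenting cells stimulate or restrain T cells: Cd80, Cd86, Icosl, Cd40, Cd83, Cd274, Pdcd1lg2 and Cd276. They were chosen by name, and each symbol stood in 1 of the 22700 rows of every deposited file. RNA was measured in cultured bone marrow cells, labelled as bone marrow macrophages, from 12-week-old male mice, with 1 library in each of 4 groups. The groups were db/db marrow in GM-CSF, db/+ marrow in GM-CSF, db/db marrow in M-CSF and db/+ marrow in M-CSF. GM-CSF was given at 20 ng/ml and M-CSF at 10 ng/ml, both for 7 to 8 days. The db/db mice (BKS.Cg-m+/+leprdb/J, labelled as type 2 diabetic) carry the leptin receptor mutation on both alleles in every cell. Their db/+ littermates (BKS.Cg-m+/+leprdb+/J, labelled as control) carry it on a single allele. The labels do not say whether a library came from 1 animal or from pooled marrow, and no group had a replicate, so a ratio between libraries has no replicate check.

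A T cell that meets its antigen needs a second signal, which CD80 and CD86 give through CD28, and which CTLA-4 blocks by competing for the same ligands. The ligands of PD-1, encoded by Cd274 (PD-L1) and Pdcd1lg2 (PD-L2), give the opposite signal and restrain the T cell. CD40 on the presenting cell receives help from T cells through CD40 ligand and raises the other costimulatory molecules by way of NF-kB. Interferon is a known inducer of PD-L1, and interleukin 4 acting through STAT6 is a known inducer of PD-L2 in mouse macrophages. M-CSF drives marrow to macrophages, while GM-CSF yields macrophages and cells with dendritic features.

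Cd274 and Pdcd1lg2, next to each other on chromosome 19 of the RefSeq annotation of GRCm38.p6, were the members with the highest rise in GM-CSF over M-CSF. The RefSeq promoter table held a sequence for 5 of the 8 members, and the 250 bases before the annotated start are shown for this pair, so that both can be read beside their values. The Cd274 stretch is chr19:29367188-29367437 and the Pdcd1lg2 stretch chr19:29410669-29410918, both on the plus strand and 5′ to 3′, and capitals mark a motif match. This build is later than the mm8 and mm9 named for the files, from which no coordinates were taken.
Cd274: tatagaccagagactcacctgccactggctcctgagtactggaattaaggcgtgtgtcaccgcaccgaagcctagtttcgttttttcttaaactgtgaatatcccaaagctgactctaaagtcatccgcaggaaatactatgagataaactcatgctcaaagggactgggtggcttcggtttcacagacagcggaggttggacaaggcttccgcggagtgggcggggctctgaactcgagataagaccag
Pdcd1lg2: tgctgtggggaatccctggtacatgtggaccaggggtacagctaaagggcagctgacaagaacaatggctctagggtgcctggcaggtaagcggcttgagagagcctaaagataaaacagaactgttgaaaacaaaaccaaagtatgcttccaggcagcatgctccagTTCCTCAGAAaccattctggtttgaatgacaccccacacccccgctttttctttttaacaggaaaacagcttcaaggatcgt
The search for 4 motifs covered both strands, each as a pair of half-sites around unspecified bases. The STAT6 form, TTC and GAA with 4 bases between them, matched in Pdcd1lg2 from 82 to 73 bases before the start, where no other motif matched, and in 5.85% of the 32851 promoters in the table. The STAT form with 3 bases between the same half-sites is in 7.02% of all promoters, the interferon response form (GAAA and GAAA, 2 bases between) in 2.98% and the NF-kB form (GGG and TTCC, 3 bases between) in 4.65%. These 3 forms had no match in the 250 bases of any of the 5 members with a sequence, and the STAT6 form had none in Cd80, Icosl, Cd274 or Cd276. Only these exact letters were searched, so sites of a looser form, also those for NF-kB, would be missed. A match is a string of letters and was not tested as a binding site.

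Levels are normalised reads, that is recovered read counts scaled per library by the authors. The 4 libraries held 25603389 to 28622706 reads. Ratios carry a 95% exact interval on read pairs, which covers counting error only, since PCR copies are not independent molecules. A gene was called between a pair of libraries when it was at least 2-fold apart on log2(normalised reads + 5), among the 13642 genes that reached 20 normalised reads in at least 1 library. All 8 members reached that minimum, Cd40 only through M-CSF and Pdcd1lg2 only through GM-CSF, so the minimum itself favoured a difference between cultures for these. Counted as read pairs, the GM-CSF libraries of opposite genotypes stood close to counting error. Their mean squared deviation was 1.09 times the sampling variance over 4358 genes of 200 to 1000 reads, against 6.74 times over 4472 genes in M-CSF. Both values would be larger if each read were counted singly, so closeness to counting error rests on counting pairs. Macrophage markers were present in all libraries, while 12 stromal markers summed to 336 and 302 normalised reads in db/db and db/+ GM-CSF, and to 73505 and 26646 in db/db and db/+ M-CSF. The 8 B cell markers summed to 21.6 and 38.2 in db/db and db/+ GM-CSF and to 417 and 333 in db/db and db/+ M-CSF.

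**Figure D1:**
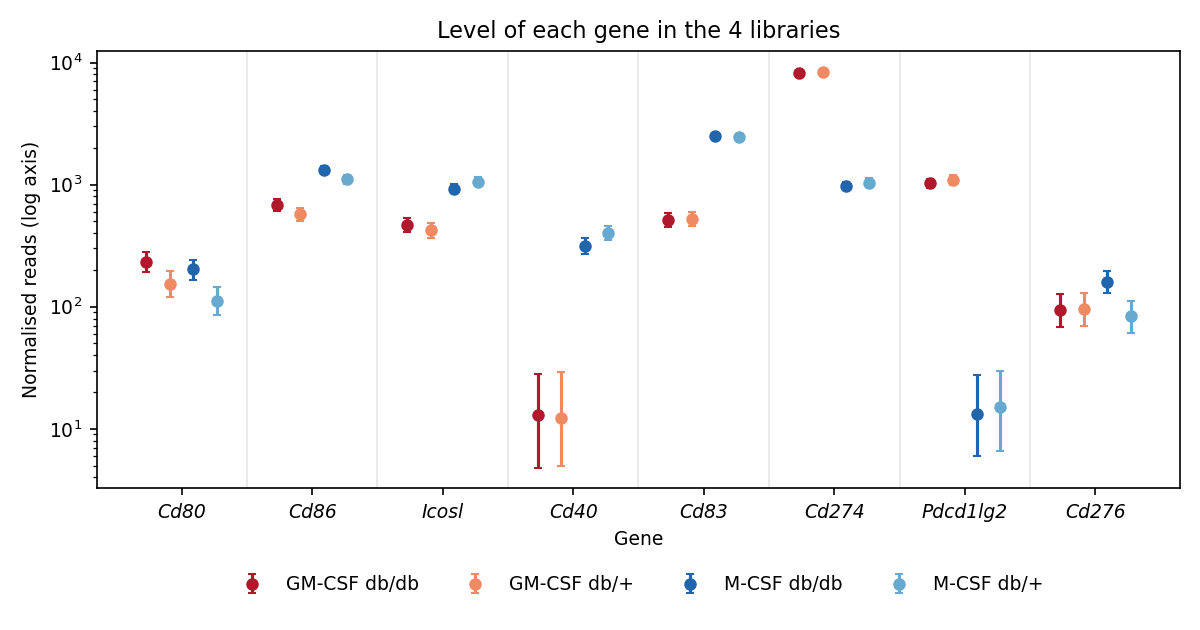
Normalised reads (log axis) of the 8 genes in the 4 libraries, with 1 point per library and 95% exact Poisson intervals on read pairs. Cd274 and Pdcd1lg2 sit higher in both GM-CSF libraries than in both M-CSF libraries, and Cd86, Icosl, Cd40 and Cd83 sit lower.

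The first comparison asked how the growth factor used for culture changed these genes. In GM-CSF both PD-1 ligands were higher than in M-CSF, and Cd40, Cd83, Icosl and Cd86 were lower, in marrow of either genotype. Cd80 and Cd276 did not pass the test. The test was limma on an additive model of culture and genotype, fitted over all 13642 genes with 1 residual degree of freedom and p-values adjusted by Benjamini-Hochberg. It treats the genotypes as replicates of a culture. The spread behind its p-values is mostly borrowed across genes (12.87 prior degrees of freedom against 1 residual). They do not measure variation between animals or between repeated cultures. Of the 8 members 2 rose and 4 fell at an adjusted p under 0.05, where 29.8% of all genes tested rose, 27.3% fell and 57.1% did either. Pdcd1lg2 and Cd40 were among these 6, and the level minimum favoured their difference, so their passing is only a description. The same 6 passed in edgeR, which called 56.8% of all genes. They also passed in limma without a variance trend, but at larger adjusted p, such as 0.00346 for Cd274 and 0.0154 for Icosl. Passing was therefore common among all genes, and the members are described by the size of their change. By the 2-fold rule 2 members were higher and 2 lower in db/db marrow, where 11.3% of all genes were higher, 15.8% lower and 27.1% either. In db/+ marrow 2 were higher and 3 lower, where 12.0% of all genes were higher, 15.7% lower and 27.6% either. The interval of the ratio left out 1 for 7 of 8 members in db/db and 6 of 8 in db/+, against 66.6% and 66.0% of all genes. The members' median log2 fold was -0.84 in db/db and -0.39 in db/+, against 0.01 and 0.03 over all genes. These are whole cultures, so fewer cells that hold a transcript and less of it per cell cannot be told apart.

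**Figure D2:**
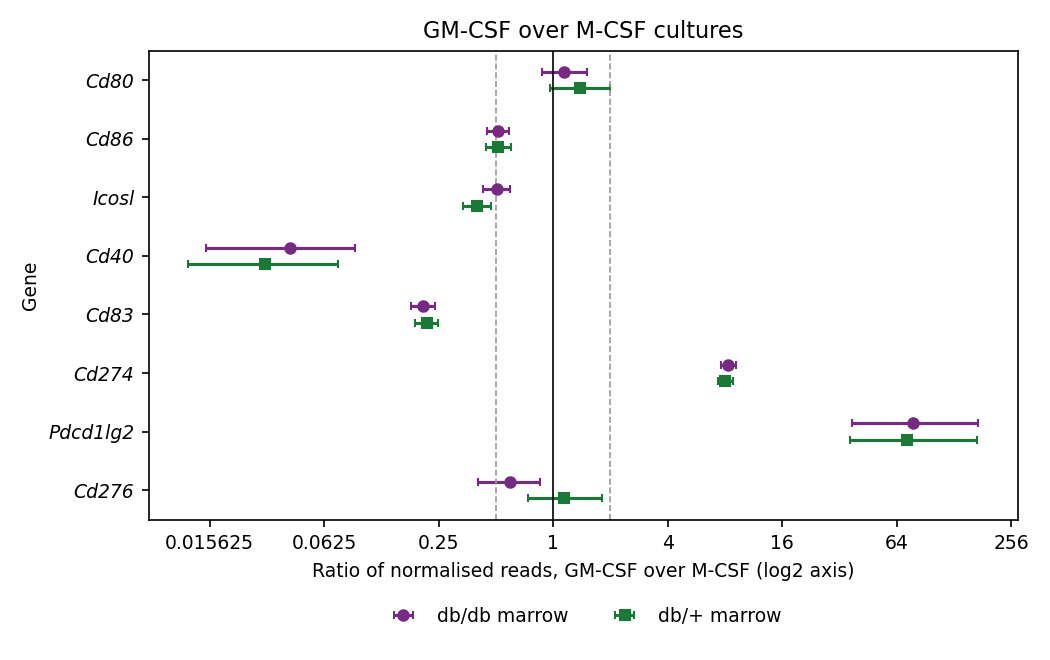
Ratio of normalised reads in GM-CSF over M-CSF cultures (log2 axis) for each gene, in db/db and in db/+ marrow, with 95% exact intervals; dashed lines mark 2-fold. The ratios run from 0.0304 for Cd40 in db/+ to 78.2 for Pdcd1lg2 in db/db.

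Cd274 encodes PD-L1, the broadly expressed ligand of PD-1. It was at 8144.9 and 8313.1 normalised reads in the db/db and db/+ GM-CSF libraries, and at 976.8 and 1039.6 in the db/db and db/+ M-CSF libraries. Both GM-CSF values lay far above both M-CSF values, and within each culture the genotypes were close. The ratio of GM-CSF over M-CSF was 8.34 (7.64 to 9.14) in db/db and 8.00 (7.31 to 8.77) in db/+. The culture effect was a log2 fold of 3.02 (SE 0.08, limma adjusted p = 5.84e-13), and 302 of the 13642 genes had a higher fold.

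Pdcd1lg2 encodes PD-L2, the other ligand of PD-1, which is known mainly from dendritic cells and macrophages. Its level was 1024.2 in db/db and 1095.8 in db/+ GM-CSF cells, against 13.1 in db/db and 15.2 in db/+ M-CSF cells. The M-CSF libraries held very little of it: 7 (db/db) and 5 (db/+) of 1100 olfactory receptor genes, which marrow cells should lack, stood as high. The ratio was 78.2 (37.0 to 171) in db/db and 72.1 (36.2 to 168) in db/+, wide because the M-CSF libraries hold few reads. The log2 fold was 5.80 (SE 0.22), and 41 genes had a higher one. No p-value is given, since the gene reached the level minimum only through GM-CSF. Per kilobase of exon, PD-L1 transcripts outnumbered PD-L2 transcripts by 4.31 (3.91 to 4.75) in db/db and 4.11 (3.74 to 4.53) in db/+ GM-CSF. In M-CSF that ratio was 37.9 (19.1 to 88.2) in db/db and 37.0 (18.6 to 86.0) in db/+, so the PD-L2 transcript changed by more than that of PD-L1.

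Cd40 encodes the receptor for CD40 ligand. It was at 12.9 and 12.3 normalised reads in db/db and db/+ GM-CSF cells, and at 312.8 and 404.2 in db/db and db/+ M-CSF cells. The GM-CSF cultures thus held very little of it, and 7 and 6 of the 1100 olfactory receptor genes stood as high in the db/db and db/+ libraries. The ratio of GM-CSF over M-CSF was 0.0412 (0.0149 to 0.0913) in db/db and 0.0304 (0.0121 to 0.0739) in db/+. The log2 fold was -4.36 (SE 0.28), and 258 of the 13642 genes had a lower fold. Its p-value is left out, since Cd40 reached the level minimum only through M-CSF.

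Cd83 encodes a marker of mature dendritic cells that also keeps CD86 and MHC class II on the cell surface. Its level was 516.4 in db/db and 526.0 in db/+ GM-CSF libraries and 2486.8 in db/db and 2435.9 in db/+ M-CSF libraries. Cultures did not overlap, and genotypes differed by little. The ratio of GM-CSF over M-CSF was 0.208 (0.180 to 0.238) in db/db and 0.216 (0.187 to 0.248) in db/+, with a log2 fold of -2.23 (SE 0.10, limma adjusted p = 8.81e-11).

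Icosl encodes the ligand of ICOS, a costimulator of helper T cells. It was at 469.1 and 422.8 in db/db and db/+ GM-CSF cells against 928.8 and 1056.7 in db/db and db/+ M-CSF cells, so the cultures did not overlap. The ratio was 0.505 (0.429 to 0.592) in db/db, just short of the 2-fold rule, and 0.400 (0.336 to 0.471) in db/+. The log2 fold was -1.14 (SE 0.12, limma adjusted p = 1.76e-06).

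Cd86, the more abundant of the CD28 ligands here, was at 678.8 and 569.8 in db/db and db/+ GM-CSF libraries and at 1329.7 and 1108.1 in db/db and db/+ M-CSF libraries. Both GM-CSF values were lower than both M-CSF values. The ratio was 0.510 (0.447 to 0.584) in db/db and 0.514 (0.442 to 0.597) in db/+, under the 2-fold rule in both, with a log2 fold of -0.96 (SE 0.11, limma adjusted p = 2.17e-06).

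Cd80, the other CD28 ligand, did not follow Cd86. It was at 231.3 and 154.8 in db/db and db/+ GM-CSF libraries and at 203.0 and 112.2 in db/db and db/+ M-CSF libraries, so the cultures overlapped. The ratio of GM-CSF over M-CSF was 1.14 (0.876 to 1.51) in db/db and 1.38 (0.960 to 1.99) in db/+, and the log2 fold of 0.32 (SE 0.20) had a limma adjusted p of 0.198. Scaled by library totals the db/db log2 fold was -0.17, while the median over all genes moved to -0.34. Per kilobase, Cd86 exceeded Cd80 by 4.27 (3.42 to 5.36) in db/db and 5.37 (4.10 to 7.11) in db/+ GM-CSF, and by 9.59 (7.88 to 11.8) in db/db and 14.4 (11 to 19.1) in db/+ M-CSF. The balance between the CD28 ligands thus lay further towards Cd86 in M-CSF than in GM-CSF in either genotype.

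Cd276 encodes B7-H3, a B7 family member found on many non-haematopoietic cells, among them fibroblasts. It was at 94.7 and 96.5 in db/db and db/+ GM-CSF cells, and at 159.4 and 84.6 in db/db and db/+ M-CSF cells. The db/db M-CSF library stood apart and the other 3 were alike. The culture ratio was 0.594 (0.403 to 0.855) in db/db and 1.14 (0.739 to 1.80) in db/+, and the culture effect had a log2 fold of -0.27 (SE 0.27, limma adjusted p = 0.411). With culture as the only factor the limma adjusted p was 0.474. With that model and without the db/+ M-CSF library the log2 fold was -0.71 (adjusted p = 0.0462), and without the db/db M-CSF library it was 0.17 (adjusted p = 0.423). The adjusted p ranged from 0.0462 to 0.679 over the alternatives. Scaled by library totals its db/+ log2 fold was -0.13, and the median over all genes was -0.29.

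**Figure D3:**
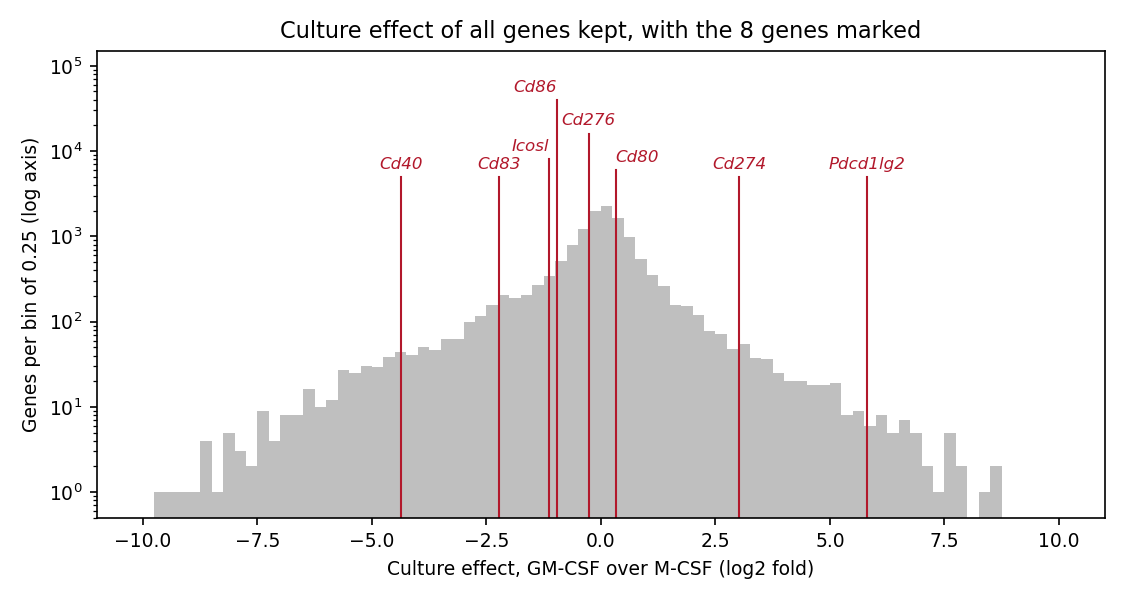
Number of genes per bin of culture effect (log2 fold of GM-CSF over M-CSF, limma, 13642 genes, log axis), with red lines at the 8 genes. Pdcd1lg2 (5.80) and Cd274 (3.02) lie in the upper tail, Cd40 (-4.36) and Cd83 (-2.23) in the lower tail, and Cd80 (0.32) and Cd276 (-0.27) near the centre.

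Levels of different genes were set side by side per kilobase of merged exon in GENCODE vM21, an annotation of a later mouse build than those named for the files. In db/db GM-CSF cells Cd274 led with 2249 normalised reads per kilobase, followed by Pdcd1lg2 with 522, Cd86 with 267, Cd83 with 208, Icosl with 167, Cd80 with 62.5, Cd276 with 26.3 and Cd40 with 4.32. The order was the same in db/+ GM-CSF cells, from 2295 for Cd274 down to 4.12 for Cd40. In db/db M-CSF cells Cd83 led with 1004, followed by Cd86 with 524, Icosl with 330, Cd274 with 270, Cd40 with 105, Cd80 with 54.8, Cd276 with 44.2 and Pdcd1lg2 with 6.68. The db/+ M-CSF library had that same order, from 983 for Cd83 down to 7.75 for Pdcd1lg2. The counting intervals of neighbours overlapped for Cd83 and Icosl in db/db GM-CSF, for Cd86 with Cd83 and for Cd80 with Cd276 in db/+ GM-CSF, for Cd80 with Cd276 in both M-CSF libraries, and for Cd86 with Icosl in db/+ M-CSF.

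The make-up of the group differed between the cultures. PD-L1 and PD-L2 took 64.1% and 14.9% of the summed level per kilobase in db/db GM-CSF cells, and 65.3% and 15.9% in db/+ GM-CSF cells. In M-CSF they took 11.5% and 0.286% in db/db and 12.6% and 0.340% in db/+. Cd83 took the largest share there, 42.9% in db/db and 43.1% in db/+. Set against Cd86 per kilobase, Cd274 stood at 8.40 (7.49 to 9.45) in db/db and 10.2 (9.0 to 11.7) in db/+ GM-CSF cells, and at 0.514 (0.461 to 0.575) in db/db and 0.658 (0.584 to 0.740) in db/+ M-CSF cells. The PD-1 ligand thus exceeded the main CD28 ligand in GM-CSF and fell short of it in M-CSF, in a ratio taken within each library that no scaling between libraries can move.

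**Figure D4:**
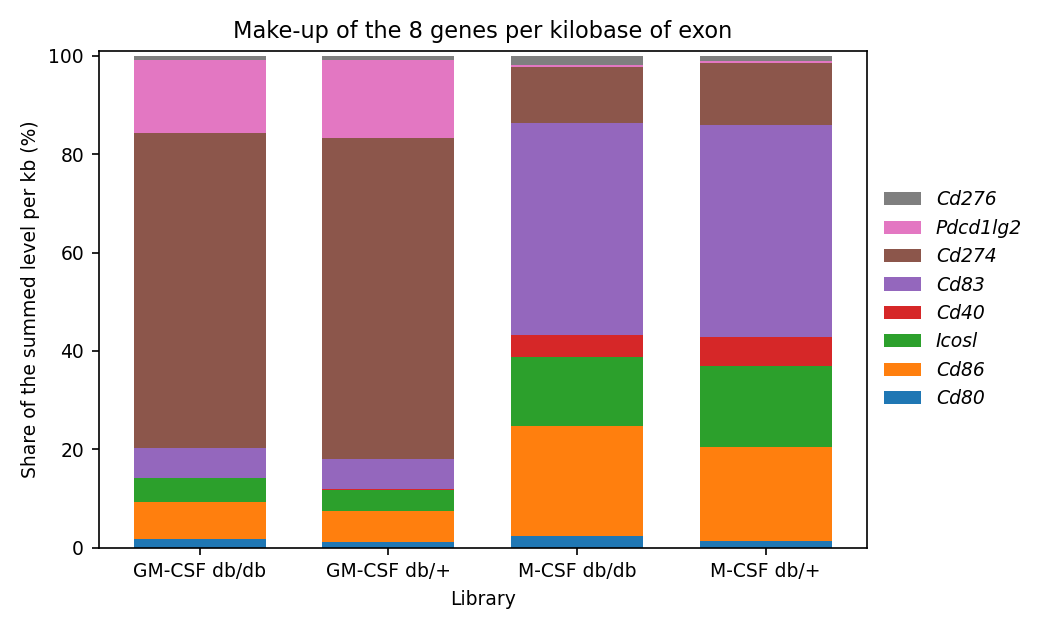
Share of each gene in the summed level per kilobase of exon of the 8 genes, as stacked bars for the 4 libraries. Cd274 takes 64.1% and 65.3% of the GM-CSF bars and Cd83 takes 42.9% and 43.1% of the M-CSF bars.

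The second comparison asked what differed between db/db and db/+ marrow. Diabetes of the donor, the leptin receptor mutation in the cultured cells and differences between donors cannot be told apart here. No member was at least 2-fold apart between db/db and db/+ in either culture. In GM-CSF 0.586% of all genes were higher in db/db, 0.476% lower and 1.06% either, and in M-CSF 5.05% were higher, 0.777% lower and 5.83% either. For genotype 0 of the 8 members passed in limma, where 1 of all genes did (0.00733%), and 0 passed in edgeR, where 103 did (0.755%). At an unadjusted limma p under 0.05 stood 2 of the 8, Cd80 and Cd86, next to 603 of 13642 genes (4.42%). The members' median log2 fold was -0.03 in M-CSF and 0.01 in GM-CSF, against 0.02 and 0.01 over all genes.

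**Figure D5:**
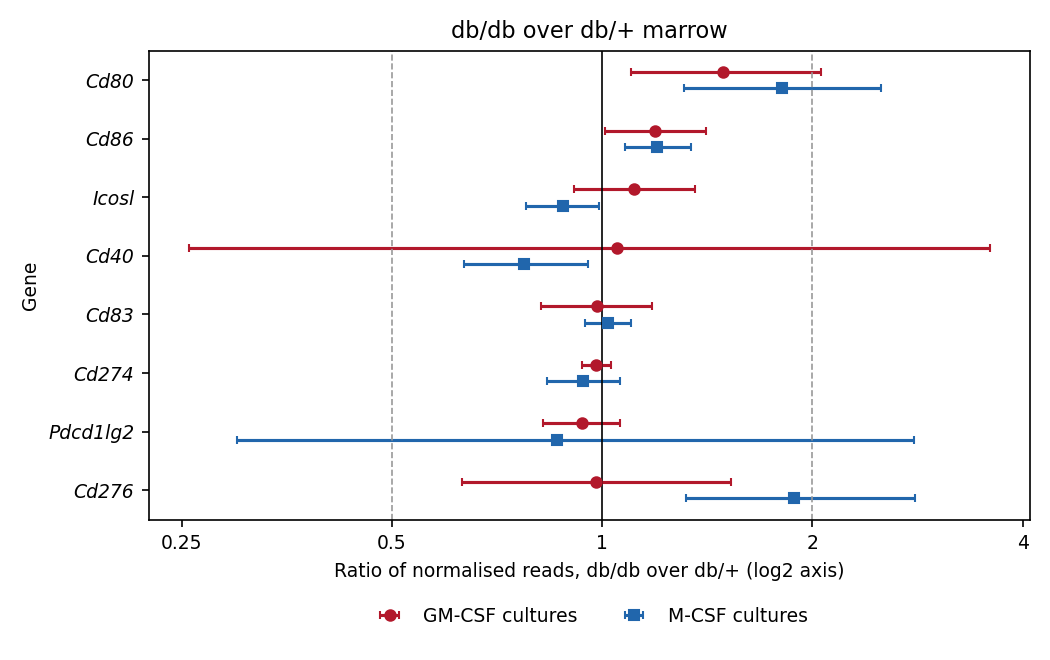
Ratio of normalised reads in db/db over db/+ marrow (log2 axis) for each gene, in GM-CSF and in M-CSF cultures, with 95% exact intervals; dashed lines mark 2-fold. The intervals of Cd80 and Cd86 lie above 1 in both cultures, and no ratio reaches 2.

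Both CD28 ligands had more reads from db/db marrow in each culture. For Cd80, at the levels given above, the ratio of db/db over db/+ was 1.49 (1.10 to 2.06) in GM-CSF and 1.81 (1.31 to 2.51) in M-CSF. The joint log2 fold was 0.70 (SE 0.20, limma unadjusted p = 0.00392, adjusted p = 0.888), so it did not pass over all genes, nor in edgeR (adjusted p = 0.270). Over the alternatives its adjusted p ranged from 0.270 to 0.9987. For Cd86 the ratio was 1.19 (1.01 to 1.41) in GM-CSF and 1.2 (1.08 to 1.34) in M-CSF, with a joint log2 fold of 0.26 (SE 0.11, limma unadjusted p = 0.0303, adjusted p = 0.9996). Intervals above 1 in both cultures were found for 105 of the 13642 genes (0.77%). Intervals below 1 in both were found for 0 members and 0.447% of all genes. These intervals leave out the variation between animals and between cultures.

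Cd276 was higher in db/db M-CSF cells by a ratio of 1.88 (1.32 to 2.81) and stood at 0.981 (0.630 to 1.53) in GM-CSF. The difference between those ratios could not be tested with 1 library per group. In M-CSF the 2-fold rule called 9 of the 11 stromal markers kept as higher in db/db, against 5.05% of all genes. Their median log2 fold was 1.33, against 0.02 over all genes. The 12 measured summed to 73505 in db/db and 26646 in db/+ M-CSF, and to 336 in db/db and 302 in db/+ GM-CSF. The Cd80 ratio in GM-CSF was 1.49 (1.10 to 2.06). The part of the stromal markers in the Cd276 and Cd80 ratios was not tested in either culture.

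Cd40 and Icosl were lower in db/db M-CSF cells, at ratios of 0.774 (0.634 to 0.953) and 0.879 (0.778 to 0.991). Their GM-CSF ratios were 1.05 (0.256 to 3.59) and 1.11 (0.911 to 1.36), and the difference between the cultures was not tested. In M-CSF the interval left out 1 for 5 of the 8 members, where it did so for 34.1% of all genes, and in GM-CSF for 2 of 8, against 6.71%. Cd83, Cd274 and Pdcd1lg2 had intervals that held 1 in both cultures. For Cd274 the db/db over db/+ ratio was 0.980 (0.936 to 1.03) in GM-CSF and 0.940 (0.834 to 1.06) in M-CSF. For Pdcd1lg2 it was 0.935 (0.823 to 1.06) in GM-CSF and 0.862 (0.300 to 2.80) in M-CSF, where few reads left the range wide. For Cd83 it was 0.982 (0.818 to 1.18) in GM-CSF and 1.02 (0.946 to 1.10) in M-CSF.

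Other ligands of the same kind were read from gene lists, in which rose and fell mean a limma adjusted p under 0.05 for culture. Over all genes 29.8% rose and 27.3% fell, the shares against which each list's counts stand. Genes that reached the level minimum in 1 culture only had to differ, so the counts of lists that hold such genes are descriptions. Of 6 measured B7 and butyrophilin genes 1 reached the minimum, 4632428N05Rik, now named Vsir, which encodes the inhibitory ligand VISTA. Like Cd83 it fell in GM-CSF, to 6185 and 6306 in db/db and db/+, against 14285 and 16388 in db/db and db/+ M-CSF (log2 fold -1.29, SE 0.09). Among TNF family ligands 5 of 6 kept rose and 0 fell, and with them the list's median log2 fold was 2.01. Tnfsf8, which encodes the CD30 ligand, was at 1069 and 998 in db/db and db/+ GM-CSF against 22.6 and 20.9 in db/db and db/+ M-CSF. Tnfsf13, which encodes APRIL, a survival factor of plasma cells, was at 1323 and 1302 against 105 and 142 in the same order. Tnfsf4, which encodes OX40 ligand, was at 81.8 and 95.3 against 5.2 and 1.9.

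Of 13 other checkpoint ligands and partners kept, 8 rose and 3 fell, against 29.8% and 27.3% of all genes. Cd200, whose product restrains myeloid cells through its receptor, was at 1658 and 1529 in db/db and db/+ GM-CSF against 128 and 62.8 in db/db and db/+ M-CSF. The receptor gene Cd200r1 was at 6356 and 5949 against 3084 and 2855 in the same order, a log2 fold of 1.05. Ceacam1 rose by a log2 fold of 2.20, and Tnfrsf14, which encodes HVEM, the ligand of BTLA, fell to 485 and 486 in db/db and db/+ GM-CSF against 989 and 1266 in db/db and db/+ M-CSF. Between the genotypes 0 genes of these 3 lists were called on log2(normalised reads + 5), although Cd200 came close, with a plain ratio of db/db over db/+ in M-CSF of 2.04 (1.35 to 3.20).

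In the CD40 and NF-kB list 4 of 19 rose and 9 fell in GM-CSF, against 29.8% and 27.3% of all genes, with a median log2 fold of -0.27. Map3k14, which encodes NIK, the kinase that links CD40 to non-canonical NF-kB, was at 147 and 180 in db/db and db/+ GM-CSF against 491 and 637 in db/db and db/+ M-CSF. Nfkb2 (log2 fold -1.01), Relb (-0.92) and the inhibitor Nfkbie (-1.11) also fell, and the adaptor Traf1 rose (1.48). In the list of PD-L1 and PD-L2 control genes 6 of 17 rose and 6 fell, near the shares of all genes (29.8% and 27.3%). Irf1, an activator of Cd274, was at 1098 and 1146 in db/db and db/+ GM-CSF against 3162 and 3778 in db/db and db/+ M-CSF. Ifngr1, a chain of the interferon gamma receptor, fell too (log2 fold -1.23), and Jak2 (0.65) and Stat5a (0.53) were among the 6 that rose. Irf4, a factor of interleukin 4 responses and dendritic cells, was at 3021 and 3139 in db/db and db/+ GM-CSF against 884 and 1014 in db/db and db/+ M-CSF. The part of these genes in the changes of Cd274 and Pdcd1lg2 was not tested.

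Of 16 dendritic cell genes kept 10 rose and 2 fell in GM-CSF, where Cd83 and Cd40 fell. The 17 measured summed to 66430 and 66468 in db/db and db/+ GM-CSF and 4070 and 3018 in db/db and db/+ M-CSF, with Flt3 at 0 in both GM-CSF libraries. Most of the GM-CSF sums came from Itgax alone, the integrin CD11c. It was at 56259 and 56042 in db/db and db/+ GM-CSF against 921 and 775 in db/db and db/+ M-CSF. The chemokine gene Ccl17 was at 2965 and 3163 against 1.7 and 2.8. Fscn1, an actin bundling protein of mature dendritic cells that other cells also make, went the other way, at 30.1 and 43.8 against 1676 and 684 in the same order. Of the markers kept, 8 of 8 neutrophil, 11 of 11 stromal, 3 of 3 mast cell and 4 of 5 B cell genes were called lower in GM-CSF, while 1 of 4 T cell markers was called higher. Most of these reached the minimum only through M-CSF, which fixes their direction: in db/db and db/+ GM-CSF it was reached by 3 and 3 of 8 measured neutrophil, 5 and 4 of 12 stromal, 0 and 0 of 7 mast cell, and 0 and 1 of 8 B cell markers. Neutrophil markers summed to 912 and 784 in db/db and db/+ GM-CSF against 16654 and 15885 in db/db and db/+ M-CSF. T cell markers summed to 269 to 349 in the 4 libraries. Ebf1, Ms4a1 and Blk of the B cell list were at 0 in both GM-CSF libraries. Of the 9 macrophage markers 2 rose and 6 fell, while their sum was 705974 and 709110 in db/db and db/+ GM-CSF against 496895 and 524662 in db/db and db/+ M-CSF. Cd68, a lysosomal protein of macrophages, rose (log2 fold 0.89), at 26213 and 24556 in db/db and db/+ GM-CSF against 11645 and 15996.5 in db/db and db/+ M-CSF. Emr1, the F4/80 antigen of macrophages, fell, at 11450 and 11230 in db/db and db/+ GM-CSF against 97863 and 98662 in db/db and db/+ M-CSF. In limma 0 genes of these lists passed for genotype, except 1 stromal marker that rose in db/db. The part of these cell markers in the culture differences of the 8 genes was not tested.

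Genes whose 4 levels ran most like those of each member were sought among 9511 other genes with a mean of 200 or more, by Euclidean distance of centred log2 values over the 4 libraries. Nearest to Cd274 was Il7r, the interleukin 7 receptor (distance 0.0264), at 23286 and 23470 in db/db and db/+ GM-CSF and 2747 and 2909 in db/db and db/+ M-CSF. Nearest to Pdcd1lg2 was Bex1 (0.0826), and nearest to Cd40 was Rtp4 (0.131), followed by the interferon-inducible GTPase genes Tgtp2 (0.153) and Tgtp1 (0.172), near-identical copies whose reads are uncertain. Cd83 lay nearest to Pf4 (0.0649), Cd86 to Myef2 (0.055) and Icosl to Sap25 (0.0354), with Nfkbie next (0.0406). Cd80 had the most distant nearest gene, Sccpdh (0.237). Cd276 lay nearest to Hmmr (0.116) and Vcan (0.133), a matrix proteoglycan gene. With 4 points per gene many profiles lie close by.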

How the data were processed

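Paired-end RNA sequencing of ribosome-depleted total RNA was deposited as a normalised signal per gene, 22700 rows in each of 4 libraries. By the file names the authors divided counts by TMM factors; the tools listed are TopHat 1.2.0 and edgeR, and the builds mm8 and mm9 with no role, per the submitters' processing notes. Counting tool, annotation, strand and filters: not given in the sources used here. Reads of a gene and of one that overlaps it can therefore not be told apart.

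Whole reads were recovered by dividing each deposited signal by the step of 1 read (1.08, 1.12, 0.871 and 0.951 in db/db and db/+ GM-CSF and db/db and db/+ M-CSF). With a tolerance of 0.1, all low values (100%) and at least 99.9% of all values were whole. Even read numbers were the commoner (52.6% to 56.3% of values from 1 to 20), so mates may have been counted singly and intervals used read pairs. Of all rows, 78 shared a symbol with another and 25 symbols had the form of a date; they stayed in the fits. There were 0 unused sample columns.

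Python 3.11.15 and scipy 1.17.1 gave levels, exact Poisson intervals, and ratios with exact conditional binomial intervals. limma 3.58.1 (trend, log2 with a pseudocount of 5, prior degrees of freedom 12.87) gave main effects of culture and genotype, whose libraries stand in for replicates of each other; no interaction could be fitted. The recovered reads were also tested with edgeR 4.0.16, which called 7746 genes for culture where limma called 7787. Alternatives were other pseudocounts (1, 20), level minimums (none, 200), scalings (DESeq2 1.42.0 size factors, library totals), no variance trend, culture as the only factor, and, with that model, leaving out each library. The members, the lists (14 with the members) and the tests were chosen with earlier results of these data known. Named were all members, up to 4 list genes per comparison with the largest folds, and the 3 nearest genes per member. Exon lengths matched by symbol for 12248 of 13642 genes (89.8%).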

Additional observations from a re-analysis of the deposited data

How the results depend on the processing

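Of the 8 members, 6 passed for culture, among them Cd40 and Pdcd1lg2, which the level minimum favoured. With culture as the only factor 6 passed. With that model, which 3 libraries require, 6 to 7 passed when each library was left out in turn, the extra gene being Cd276 without the db/+ M-CSF library. Its log2 fold was 0.17 without the db/db M-CSF library. With the GM-CSF libraries averaged into 1 sample, 6 passed. With no filter 0 passed, since the rows at 0 in every library enter the estimate of the spread; the adjusted p of the 6 was then 0.0628 to 0.08. With rows above 0 in at least 1 library, an alternative chosen after seeing the data, 6 passed again. By the 2-fold rule 7 members were called in db/db GM-CSF over M-CSF when scaled by library totals, against 4. In db/+ marrow 6 were called, against 5. That scaling moves the median log2 fold of all genes to -0.34 in db/db and -0.29 in db/+. Of all genes it called 3998 in db/db, against 3702, and 3965 in db/+, against 3771. For genotype 0 members passed in limma or edgeR under any alternative run. Counts over all genes depended on the settings: genotype gave 1 in limma, 0 to 3 under other limma settings and 103 in edgeR. Culture gave 7787, with 0 under no filter, 5009 and 5026 without the db/db or the db/+ GM-CSF library, and 4988 with those averaged. At a level minimum of 200 the genes 2-fold apart numbered 334 between genotypes in M-CSF and 13 in GM-CSF, against 795 and 145, and 2225 in db/db and 2318 in db/+ between cultures, against 3702 and 3771. With a pseudocount of 20 the genotype counts were 471 in M-CSF and 1 in GM-CSF. A pseudocount of 1 gave 560 in GM-CSF, and no filter gave 1366 in M-CSF and 316 in GM-CSF. For genotype no library was left out. With culture kept in the model no residual degrees of freedom would remain, and a model of genotype alone was not run. Libraries were not paired by animal. Each group had 1 library, and the labels do not say whether it came from 1 animal or from pooled marrow. Depth limits Cd40 in GM-CSF and Pdcd1lg2 in M-CSF, at 12.3 to 15.2 normalised reads, where 3 read pairs are 5.23 to 6.73.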

Other observations

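In the list of T cell receptors for these ligands 8 of 12 genes reached the level minimum, and 2 rose and 3 fell in GM-CSF over M-CSF (limma), near the shares of all genes (29.8% and 27.3%). Cd28, the T cell receptor of CD80 and CD86, had reads in all 4 libraries. It was at 2738 and 2601 normalised reads in db/db and db/+ GM-CSF and 5924 and 5936 in db/db and db/+ M-CSF (log2 fold of culture -1.15, SE 0.08). The T cell receptor complex genes Cd3d, Cd3e and Cd3g were at most at 8.6, 4.8 and 1.9 in any library, and Ctla4, which encodes the rival receptor of CD28 for the same ligands, and Cd40lg were listed at 0 in all 4. Pdcd1, the receptor of PD-L1 and PD-L2, was at most at 5.2 and Icos at most at 33.3. These 8 T cell genes were singled out after their values were seen, and with the strand of the libraries not given, reads from an overlapping transcript cannot be separated from those of Cd28.

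Tnfrsf9, which encodes 4-1BB, a costimulatory receptor best known from activated T cells, was at 993 and 941 in db/db and db/+ GM-CSF against 5.2 and 4.8 in db/db and db/+ M-CSF. It was singled out for its size and reached the level minimum of 20 only through GM-CSF, so no test is given. Its ligand gene Tnfsf9 was at 162.5 and 130.1 in db/db and db/+ GM-CSF and 97.6 and 95.1 in db/db and db/+ M-CSF.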
